A study of Mus musculus with 6 samples.

Results

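The genes described here are Npy, which encodes neuropeptide Y (NPY), and 4 NPY receptor genes, Npy1r, Npy2r, Npy5r and Npy6r. They were compared between a pair of mouse hypothalamic cell lines in 6 cultures. They were chosen by name, with earlier results of these data known. Every probe set that the platform annotation assigns to one of them alone was taken. That gave 7 probe sets for 5 genes out of 20380 probe sets for 12393 genes on the array. A_212 is a line made from hypothalamus of adult mice and N_46 one made from that of embryos. Both carry overexpressed SV40 T-antigen, which immortalises cells by disabling p53 and the retinoblastoma family, and both are labelled as expressing Npy. There were 3 plates per line, harvested at 70% confluence from medium containing 5% serum, without any stated treatment, and 1 array per plate. The ages of the donor mice are given only as adult and embryonic. Each origin is represented by 1 line, so the plates are replicates of a line, p-values rest on plate-to-plate spread alone, and the effect of origin and that of the individual line cannot be told apart.

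NPY is a short amidated peptide that strongly stimulates feeding when it is released by neurons of the arcuate nucleus, where it is made together with agouti-related peptide (AgRP) and GABA. It acts through Y receptors, which couple to inhibitory G proteins of the Gi and Go class and so lower cyclic AMP and open or close ion channels. The Y1 and Y5 receptors are the ones most often linked to feeding, whereas the Y2 receptor mainly sits on nerve endings and restrains the release of NPY itself. Npy6r encodes a further receptor that is functional in mice and a pseudogene in humans.

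The deposited log2 values carry no expression level. For each probe set the median of the 6 arrays is 0, so a value says how far an array lies from that middle, and whether a gene was expressed at all cannot be read from it. Where all 3 arrays of a line lie above all 3 of the other, the nearest pair is placed by this centring at equal distances above and below 0. Differences are given as N_46 minus A_212 on the log2 scale with standard errors (SE) from limma, and folds rest on a log base of 2, which was inferred. Levels cannot be compared between genes on this scale.

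Of the 5 genes, Npy1r was higher in the embryonic-derived line by 1.16 ± 0.11 (SE, n = 3 arrays per line), or 2.23-fold, and Npy5r was just past the threshold at 0.27 ± 0.09, or 1.21-fold. Npy, Npy2r and Npy6r did not pass, with differences between -0.03 and 0.05. A gene counted as past the threshold at a limma p-value under 0.05 after Benjamini-Hochberg adjustment over 12393 genes. By that rule 39.2% of all genes differed, 20.9% higher in N_46 and 18.3% higher in A_212, so 2 of 5 is close to the background. Lines that did not overlap were seen for 2 of the 5 genes with N_46 above, against 28.9% of all genes.

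The upstream sequences of 3 of these genes are shown because both lines are labelled as expressing Npy, and because Npy1r and Npy5r, the pair past the threshold, are neighbours on chromosome 8 that are read away from each other, with start sites 9.33 kb apart. Each is the 250 bases before the annotated start site, 5′ to 3′ on the strand of the gene, from RefSeq (GRCm38.p6). Npy lies at chr6:49822460-49822709 (plus strand), Npy1r at chr8:66697172-66697421 (plus strand) and Npy5r at chr8:66688095-66688344 (minus strand). Capitals mark matches to 6 short motifs, searched on both strands, and no matches overlapped. The letters TGACTCA stand for the site that Fos and Jun proteins of the AP-1 family bind. An E-box was searched as CACGTG, the form bound by basic helix-loop-helix factors. The letters of the GC box, a site of Sp-family proteins, were GGGCGG in this search. The promoter element of nuclear factor Y was searched as CCAAT in either orientation. A core promoter match resembling a TATA box was taken as ATAAAA in this search. The core of the cyclic AMP response element was taken as TGACG in both orientations.
Npy: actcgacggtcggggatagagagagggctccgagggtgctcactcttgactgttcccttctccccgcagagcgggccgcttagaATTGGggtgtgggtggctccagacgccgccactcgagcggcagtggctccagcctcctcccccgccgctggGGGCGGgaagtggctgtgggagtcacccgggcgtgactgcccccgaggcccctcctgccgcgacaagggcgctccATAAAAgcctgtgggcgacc
Npy1r: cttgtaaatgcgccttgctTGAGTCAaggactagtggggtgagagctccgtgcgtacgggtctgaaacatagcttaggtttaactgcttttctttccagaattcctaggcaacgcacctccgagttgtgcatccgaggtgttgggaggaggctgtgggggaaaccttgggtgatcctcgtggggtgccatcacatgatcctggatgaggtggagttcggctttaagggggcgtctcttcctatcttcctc
Npy5r: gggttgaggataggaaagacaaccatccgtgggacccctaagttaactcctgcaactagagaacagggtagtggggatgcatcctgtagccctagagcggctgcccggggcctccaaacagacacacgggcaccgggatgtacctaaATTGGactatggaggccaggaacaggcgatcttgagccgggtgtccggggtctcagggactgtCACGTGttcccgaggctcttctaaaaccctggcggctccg
The Npy window held a TATA-like match 20 bases before the start site, a GC box at 95 and a CCAAT box at 166, counted to the first base of each match. The Npy1r window held 1 match, an AP-1 site on the opposite strand at 231, which 4.46% of 32851 windows of this length in the table also held. The Npy5r window held an E-box at 40, found in 6.02% of windows, and a CCAAT box at 103, found in 33.8%. GC boxes were present in 32.7% of windows, TATA-like matches in 17% and cyclic AMP response cores in 17.8%. The Npy1r and Npy5r windows thus shared 0 of the motifs searched. Guanine and cytosine made up 69.2% of the Npy window, which is more than in 89.6% of windows, against 53.6% for Npy1r and 58.8% for Npy5r. These matches are letters in a window, and no binding was measured.

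The ligand gene Npy was read by 1 probe set, 1419127_at. Its values were -0.08, -0.15 and 0.13 in A_212 replicates 1, 2 and 3, and -0.016, 0.05 and 0.016 in N_46 replicates 1, 2 and 3. All 3 embryonic-derived arrays lay inside the range of the adult-derived ones, and the SD was 0.15 in A_212 and 0.03 in N_46. The difference was 0.05 ± 0.08, and its 95% interval ran from -0.14 to 0.24, or from 0.91-fold to 1.18-fold (limma adjusted p = 0.665). Differences larger than that interval were therefore not seen for the peptide gene, while its level in either line is not known from these values. Of all genes, 16.1% had a smaller absolute difference.

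**Figure D1:**
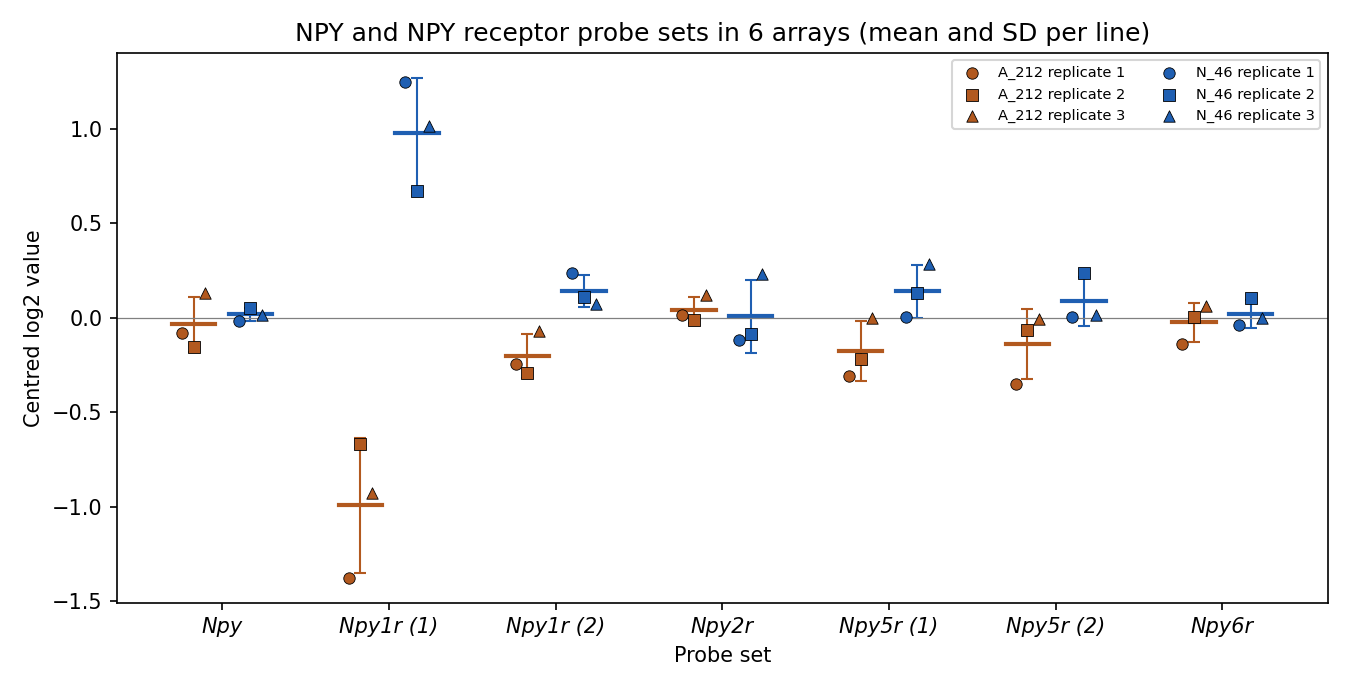
Centred log2 values (y axis) of the 7 probe sets of Npy and its receptors (x axis) in the 3 A_212 and 3 N_46 arrays, with a horizontal line for the mean and a bar for the SD of each line and a marker shape for each replicate number. The first Npy1r probe set, 1421471_at, separates the lines by a gap of 1.34, and the second, 1426054_at, by 0.15, while the lines interleave for Npy, Npy2r and Npy6r.

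Npy1r encodes the Y1 receptor, one of the receptors through which NPY stimulates feeding. Its 2 probe sets were designed from different sequence records. Probe set 1421471_at read -1.38, -0.67 and -0.93 in A_212 replicates 1, 2 and 3, and 1.25, 0.67 and 1.01 in N_46 replicates 1, 2 and 3. Every embryonic-derived array was above every adult-derived one, and the nearest arrays, replicate 2 of each line, were 1.34 apart. The lines kept apart in this way in 4 of the 7 probe sets, with N_46 above in each, against 27.5% of all probe sets. The difference was 1.97 ± 0.18 (95% interval 1.57 to 2.37), a 3.92-fold difference with limma adjusted p = 9.31e-06 over 20380 probe sets. Of all probe sets, 37.4% were past that threshold and 19.6% were past it and higher in N_46, and 98.2% of probe sets had a smaller absolute difference than this one.

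Probe set 1426054_at read -0.25, -0.29 and -0.07 in A_212 replicates 1, 2 and 3, and 0.23, 0.11 and 0.07 in N_46 replicates 1, 2 and 3. The order of the lines was the same and the gap far smaller, at 0.15. The difference was 0.34 ± 0.09 (95% interval 0.15 to 0.54), or 1.27-fold (limma adjusted p = 0.0108). Both probe sets of the Y1 receptor gene were thus higher in N_46, and they did not give the same size. Within an array, 1421471_at minus 1426054_at was -1.13, -0.38 and -0.86 in A_212 replicates 1, 2 and 3, and 1.02, 0.56 and 0.94 in N_46 replicates 1, 2 and 3. The lines differed in this quantity by 1.63 ± 0.19 (95% interval 1.21 to 2.05, limma adjusted p = 0.000305 over 12821 pairs of probe sets of 1 gene). Of those pairs 16.3% were past the threshold, and this pair ranked 169th in absolute size. What each probe set matches in the transcripts of Npy1r was not analysed here.

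The mean of both probe sets, used as the value of the gene, was -0.81, -0.48 and -0.50 in A_212 replicates 1, 2 and 3, and 0.74, 0.39 and 0.54 in N_46 replicates 1, 2 and 3. The lines were separated by 0.87 at their nearest arrays. The difference of 1.16 had a 95% interval from 0.91 to 1.41, or 1.87-fold to 2.65-fold (limma adjusted p = 1.72e-05). It ranked 204th among 12393 genes in the direction of N_46, and 2.22% of all genes were past the threshold and at least 2-fold higher there. Its plates were less alike than those of most genes, with a residual SD of 0.18 that exceeded the residual SD of 90.9% of genes, whose median was 0.10. Taking the probe set with the largest SD, 1421471_at, as the gene value moved the difference to 1.97, while 1426054_at alone differed by 0.34.

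Npy5r encodes the Y5 receptor, the other receptor linked to feeding. Probe set 1419008_at read -0.31, -0.22 and -0.0023 in A_212 replicates 1, 2 and 3, and 0.0023, 0.13 and 0.29 in N_46 replicates 1, 2 and 3. The lines did not overlap, but A_212 replicate 3 and N_46 replicate 1 were only 0.0047 apart. The difference was 0.32 ± 0.10 (95% interval 0.08 to 0.55, 1.24-fold, limma adjusted p = 0.0359). Probe set 1449312_at, built from the same sequence record, read -0.35, -0.07 and -0.0052 in A_212 replicates 1, 2 and 3, and 0.0052, 0.24 and 0.016 in N_46 replicates 1, 2 and 3. Its lines also met near 0, with a gap of 0.01, and its difference of 0.23 ± 0.11 (95% interval -0.01 to 0.47) did not pass (limma adjusted p = 0.128). The probe sets of Npy5r differed from each other by 0.09 ± 0.12 (limma adjusted p = 0.71).

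As a gene, Npy5r read -0.33, -0.14 and -0.0038 in A_212 replicates 1, 2 and 3, and 0.0038, 0.18 and 0.15 in N_46 replicates 1, 2 and 3. The 95% interval of its difference ran from 0.06 to 0.48, or 1.04-fold to 1.40-fold (limma adjusted p = 0.0429). The call ended when all arrays were set to the same median (0.24, limma adjusted p = 0.0581). It also ended without A_212 replicate 1 (0.19, adjusted p = 0.154), without A_212 replicate 2 (0.28, adjusted p = 0.086), without N_46 replicate 2 (0.24, adjusted p = 0.137) and without N_46 replicate 3 (0.25, adjusted p = 0.123), all in limma. The median difference of all genes was 0.06 in the same direction, and 65.7% of genes had a smaller absolute difference than Npy5r.

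**Figure D2:**
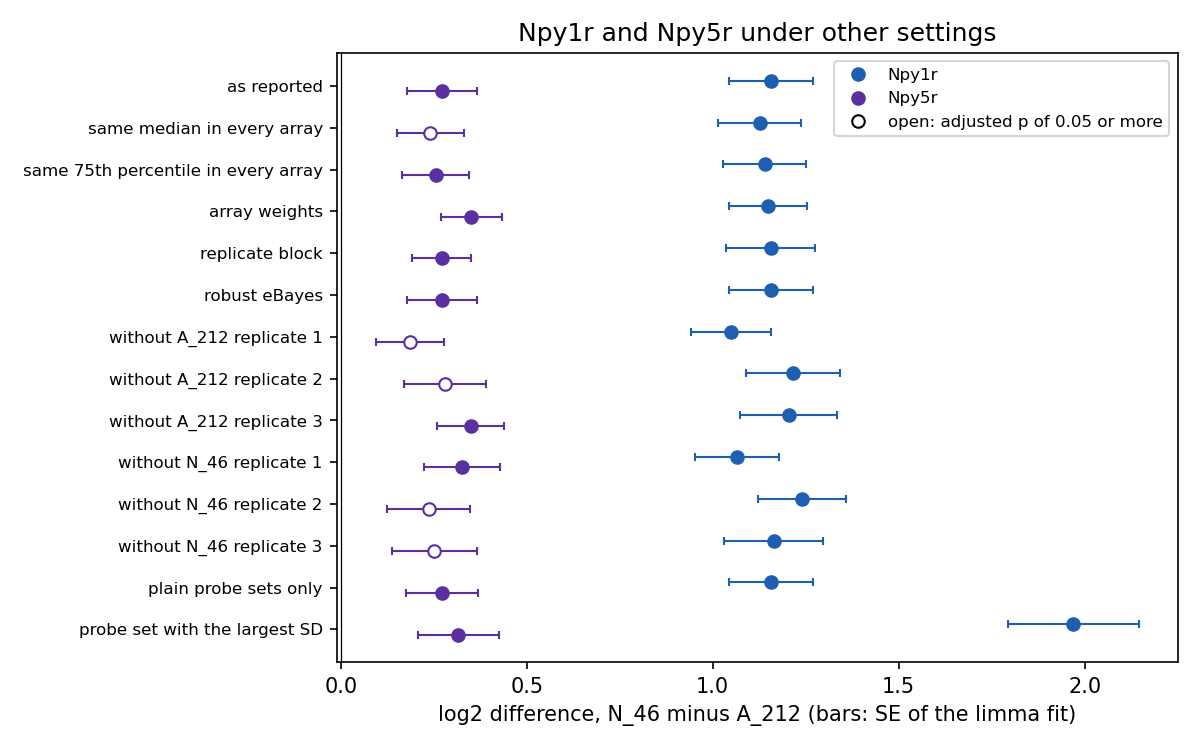
Difference between the lines (x axis, log2, N_46 minus A_212, bars are the SE of the limma fit) for Npy1r and Npy5r under each setting (y axis), with filled circles for an adjusted p under 0.05 and open circles otherwise. Npy1r is filled in all 14 settings, the reported one included, between 1.05 and 1.97, and Npy5r is open in 5 of them. No setting took the Npy1r probe set 1426054_at alone, whose difference was 0.34.

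Npy2r encodes the Y2 receptor, the presynaptic receptor that restrains NPY release. Its single probe set, 1417489_at, read 0.015, -0.015 and 0.12 in A_212 replicates 1, 2 and 3, and -0.12, -0.09 and 0.23 in N_46 replicates 1, 2 and 3. N_46 replicate 3 was the highest array and N_46 replicate 1 the lowest, so the embryonic-derived plates enclosed the adult-derived ones. The difference was -0.03 ± 0.10 (95% interval -0.25 to 0.19, or 0.84-fold to 1.14-fold, limma adjusted p = 0.81). The sign of so small a difference turned in several settings and is not a direction.

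Npy6r encodes the Y6 receptor. Its single probe set, 1422347_at, read -0.14, 0.0024 and 0.06 in A_212 replicates 1, 2 and 3, and -0.04, 0.10 and -0.0024 in N_46 replicates 1, 2 and 3. The lines interleaved. The difference was 0.05 ± 0.08 (95% interval -0.13 to 0.22, or 0.91-fold to 1.17-fold, limma adjusted p = 0.686). Over Npy, Npy2r and Npy6r, the lowest bound of an interval was 0.84-fold and the highest 1.18-fold.

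**Figure D3:**
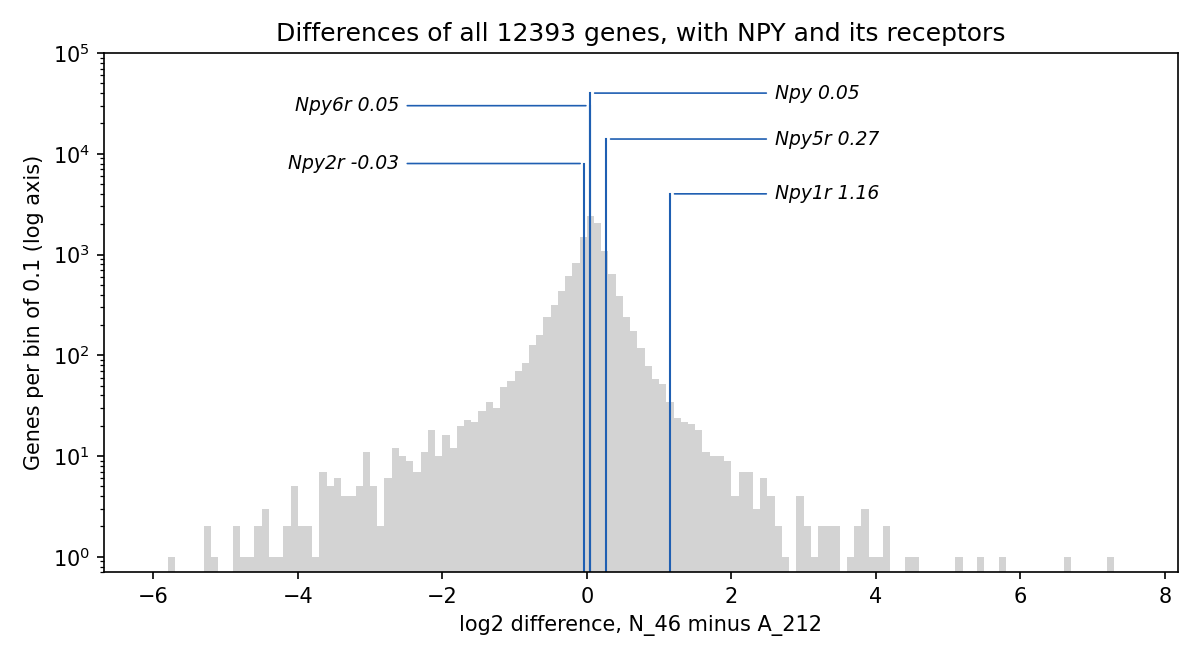
Histogram of the log2 difference between the lines (x axis, N_46 minus A_212) for all 12393 genes in bins of 0.1 (y axis, number of genes, log scale), with NPY and its receptors marked by lines. Npy, Npy2r and Npy6r lie in the centre of the distribution, Npy5r on its upper shoulder and Npy1r at 1.16, above 95.4% of genes in absolute size.

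A call for one receptor and none for another does not show that they differ, so Npy1r was set against each other gene within the same array. Npy1r minus Npy5r was -0.48, -0.34 and -0.50 in A_212 replicates 1, 2 and 3, and 0.74, 0.21 and 0.39 in N_46 replicates 1, 2 and 3. The lines did not overlap, and they differed by 0.88 in this quantity. The same comparison gave 1.105 against Npy, 1.19 against Npy2r and 1.11 against Npy6r, each with no overlap and with gaps of 0.67, 0.78 and 0.77. The lines of Npy1r alone were already 0.87 apart at their nearest arrays, so most of this separation is carried over from Npy1r. The share of all gene pairs without overlap was not computed, so the lack of overlap is no support that the genes differ. The two-sided exact permutation test gave p = 0.10 for each of the 4 pairs, before and after Benjamini-Hochberg adjustment, which is the smallest p that 3 arrays against 3 allow, so none could pass. These 4 quantities share the values of Npy1r, the mean of probe sets that differed between the lines by 1.97 and 0.34. The comparison was not run with either probe set alone. The difference of 1426054_at, 0.34 ± 0.09, lay near that of Npy5r, 0.27 ± 0.09, so the contrast with Npy5r rests mainly on 1421471_at.

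The genes were also compared between plates of a line. In A_212 replicate 1 all 5 genes were below the mean of their line, with deviations of -0.21 for Npy1r and -0.17 for Npy5r, and in A_212 replicate 3 0 of the 5 were below it. In N_46, replicate 1 had 4 of the 5 genes below the line mean, with Npy1r the exception, 0.18 above it. The share of all genes below their line mean in each array was not computed, so these counts have no background beside them. The deviations of a gene also sum to 0 over the 3 plates of a line, so its plates cannot all lie on 1 side. The medians of the arrays over all non-control probe sets ran from -0.025 in both A_212 replicates 1 and 2 to 0.02 in N_46 replicate 3, far less than the spread of Npy1r. All 3 A_212 medians lay below all 3 N_46 medians. The gap of 0.0075 between the lines of Npy5r as a gene was smaller than that range of medians. Between arrays of a line, values over all genes, which are not independent replicates, correlated with r between 0.80 and 0.92. The values are centred over both lines, so this r also holds the difference between the lines and is no plain measure of plate agreement.

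On chromosome 8 the measured genes next to the pair were also examined, a choice made after seeing the values. Naf1, an assembly factor of box H/ACA ribonucleoproteins and the nearest measured gene beyond Npy1r, was higher in N_46 by 1.37 ± 0.08 (limma adjusted p = 3.24e-07), and Tma16, the nearest beyond Npy5r, by 0.26 ± 0.07 (limma adjusted p = 0.0139). The next genes out, Nat1 (0.33) and Trim60 (0.15), did not pass, and beyond them lay values of the opposite sign, with the arylamine acetyltransferase gene Nat2 at -2.02 ± 0.11 and Tmem192, which encodes a lysosomal membrane protein, at -0.35 ± 0.08. On chromosome 6, 4 of the 6 measured genes nearest to Npy were past the threshold, all higher in N_46 (20.9% of all genes were), among them Gsdme (1.04), which encodes the pore-forming gasdermin E, while Npy itself lay at 0.05. Over all genes 39.2% were past the threshold in either direction, a share that stands beside the neighbours on chromosomes 8, 3 and 18. The 6 nearest to Npy2r on chromosome 3 included 0 past the threshold by limma, also with robust eBayes, and 1 at an unadjusted p under 0.05. Of the 6 nearest to Npy6r on chromosome 18, 1 was past the threshold, Dpysl3, which encodes a protein of growing axons, and it was higher in A_212 (-1.02 ± 0.09, limma adjusted p = 7.26e-06).

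Over the 6 arrays the genes whose pattern was most like that of Npy1r were Iqgap2, which encodes a scaffold protein of the cytoskeleton (Pearson r = 0.998), Hes1, a repressor induced by Notch (r = 0.998), and Per2, a component of the circadian clock (r = 0.997). They differed between the lines by 0.80, 1.62 and 0.56. For Npy5r they were Serpina1c (r = 0.995), Hapln2 (r = 0.993) and Cryba1 (r = 0.993), with differences of 0.29, 0.23 and 0.12. Such values are high for many genes because the arrays fall into a pair of clusters, the lines, and 615 genes had r above 0.95 with Npy1r and 94 with Npy5r. They describe these arrays and are no sign of shared control.

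The remaining genes of the NPY pathway were taken from lists by role. Of 43 genes besides the 5 described, 37 were measured, of which 2 were higher in N_46, 9 were higher in A_212 and 26 did not pass, with a median difference of 0.0039 against 0.06 over all genes. That is 29.7% past the threshold against 39.2% of all genes. The other ligands of the receptors, Pyy, the gut hormone peptide YY, and Ppy, pancreatic polypeptide, did not pass, at 0.00057 ± 0.11 and 0.14 ± 0.14. The receptor gene Npy4r did not pass either, at 0.13 ± 0.11 (95% interval -0.11 to 0.37). In each of these 3 genes A_212 and N_46 arrays interleaved.

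Among 5 genes of peptide processing and cleavage, 2 were higher in A_212 and 3 did not pass, or 40% past the threshold against 39.2% of all genes. Pam, the enzyme that adds the terminal amide NPY needs to bind its receptors, read 0.59, 0.69 and 0.45 in A_212 replicates 1, 2 and 3, and -0.56, -0.92 and -0.45 in N_46 replicates 1, 2 and 3. All adult-derived arrays lay above the embryonic-derived ones, and the difference was -1.22 ± 0.12 (limma adjusted p = 1.57e-05). Mme, which encodes neprilysin, a peptidase that cleaves many neuropeptides, differed by -0.63 ± 0.09, with probe sets at -0.38 and -0.88. The prohormone convertase gene Pcsk1 (-0.16), the carboxypeptidase gene Cpe (0.07) and Dpp4 (0.12), whose product trims NPY to a form that no longer binds Y1 well, did not pass.

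Y receptors signal through Gi and Go. Of 5 alpha subunit genes, 1 was higher in N_46, 2 were higher in A_212 and 2 did not pass. The share past the threshold was 60%, against 39.2% of all genes. Gnai1 read 1.44, 2.05 and 1.86 in A_212 replicates 1, 2 and 3, and -1.93, -1.47 and -1.54 in N_46 replicates 1, 2 and 3. Its lines were 2.90 apart at the nearest arrays, and its difference of -3.43 ± 0.16 (limma adjusted p = 5.74e-08), opposite in direction to that of Npy1r, exceeded in absolute size that of 99.5% of genes. All 3 Gnai1 probe sets went the same way, from -2.29 to -4.37. Gnai2 was also higher in A_212 (-0.29 ± 0.08), a call that ended without A_212 replicate 2 (-0.25, limma adjusted p = 0.0535) and without N_46 replicate 3 (-0.27, limma adjusted p = 0.059). Gnaz was higher in N_46 (0.63 ± 0.14), and Gnai3 (0.0051) and Gnao1 (0.016) did not pass.

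Downstream of the G proteins, the differences of adenylyl cyclase genes ran from -0.23 to 0.21. Of 7 measured, 1 was higher in A_212 and 6 did not pass. The share past the threshold was 14.3%, against 39.2% of all genes, in a list of only 7. The gene past the threshold was Adcy3 (-0.23 ± 0.08). Its call was lost without A_212 replicate 2 or 3 or without any N_46 replicate (limma adjusted p from 0.0611 to 0.123). Of the 4 GIRK channel genes, which encode potassium channels opened by Gi-coupled receptors, 0 passed the limma test, also at an unadjusted p of 0.05 or with robust eBayes, with differences from -0.10 for Kcnj3 to 0.20 for Kcnj5. The share past the threshold was thus 0%, against 39.2% of all genes, in a list of only 4. Of 5 genes for arrestins and receptor kinases, which switch receptors off after activation, 2 were higher in A_212 and 3 did not pass. The share past the threshold was 40%, near that of all genes. The 2 were Arrb1 (-0.71 ± 0.08) and Grk5 (-0.81 ± 0.09), while Arrb2 (0.10), Grk4 (0.12) and Grk6 (-0.0080) did not pass.

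Of 8 measured regulators known to act on Npy transcription, 1 was higher in N_46, 2 were higher in A_212 and 5 did not pass. The share past the threshold was 37.5%, against 39.2% of all genes. Foxo1, which mediates the effect of insulin on Npy, was higher in N_46 (0.58 ± 0.07), with 3 of its 4 probe sets past the threshold and the fourth at 0.20. Stat3, the mediator of leptin signalling, differed by -0.59 ± 0.08, with 1 of 3 probe sets not past the threshold (-0.15), and Nr3c1, the glucocorticoid receptor gene, by -0.80 ± 0.08. The receptor genes Lepr and Insr, the factors Creb1 and Esr1, and the neuronal gene repressor Rest did not pass.

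**Figure D4:**
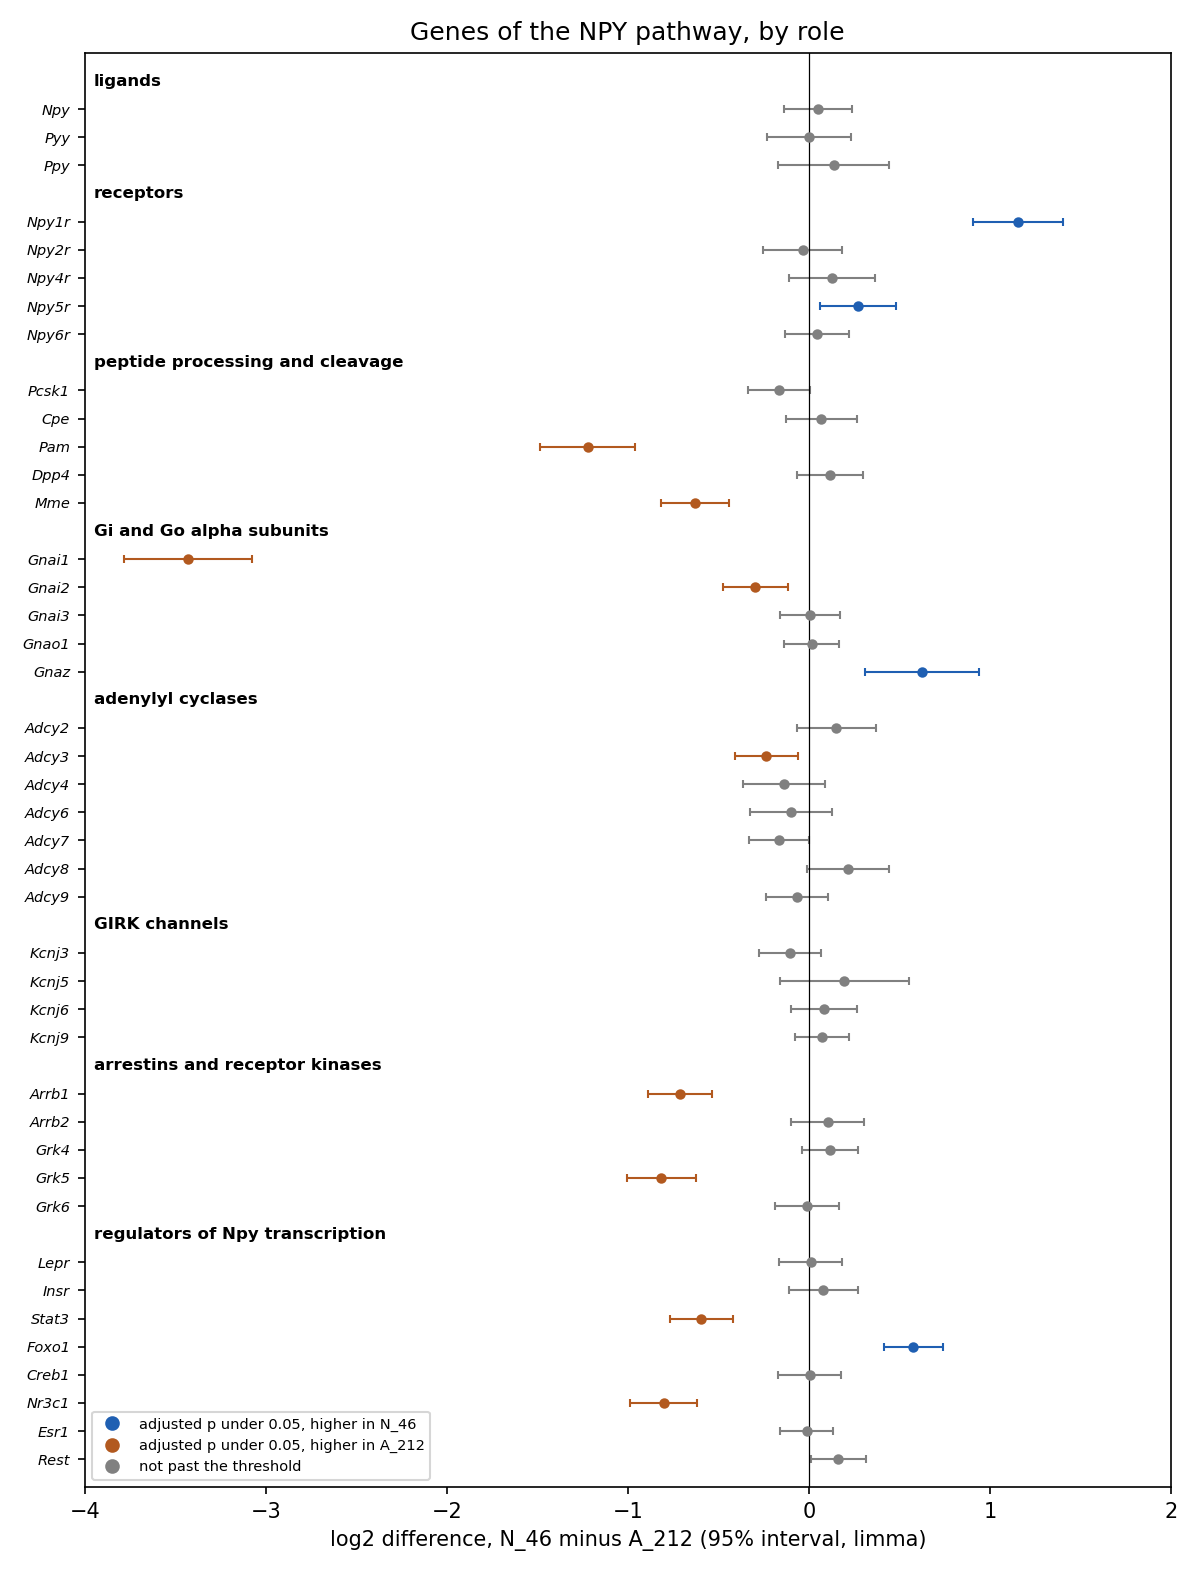
Log2 difference between the lines (x axis, N_46 minus A_212, points with 95% intervals from limma) for each measured gene of the NPY pathway lists (y axis), grouped by role and coloured by whether the adjusted p was under 0.05. Npy1r at 1.16 is the highest point and Gnai1 at -3.43 the lowest.

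Markers were used to see what else differed along with these genes, and their counts stand beside 20.9% of all genes higher in N_46 and 18.3% higher in A_212. Of 7 measured markers of NPY and AgRP neurons, which include Npy and Lepr, already given above as not past, 0 passed the limma test, with a median difference of 0.07 and a range from 0.0083 for Isl1 to 0.19 for Otp; 2 of the 7 were past an unadjusted p of 0.05, and 0 passed with robust eBayes. Agrp was not analysed here. Of 12 neuronal markers, each line had 2 that were higher and 8 did not pass. Those higher in A_212 were Stmn2 (-3.09) and Tubb3 (-1.13), and those higher in N_46 were Map2 (0.25) and Gap43 (0.24). The 12 markers of fibroblasts and mesenchyme had 8 higher in A_212 and 1 in N_46, with a median of -2.26 against 0.06 over all genes. The mean over that list ran from 1.03 to 1.28 in A_212 arrays and from -1.22 to -1.05 in N_46 arrays, the largest members being Cdh11 (-5.74) and Mmp2 (-5.26). Smooth muscle and pericyte markers had 6 of 8 higher in A_212 (list means from 0.53 to 0.67 against -0.86 to -0.58). Of 8 astrocyte markers, 2 were higher in N_46, Slc1a3 at 2.47 and Gja1 at 1.30, and 1 in A_212, Aldoc at -0.83. The other 5 did not pass, among them Gfap (0.05), Aqp4 (-0.01) and Aldh1l1 (0.03). Endothelial markers had 2 of 6 higher in N_46 and 1 in A_212, and microglial markers 1 of 6 higher in N_46. The part of these differences in those of Npy1r, Npy5r, Gnai1 or Pam was not tested, and in bulk RNA fewer cells with a transcript and less of it per cell cannot be told apart.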

How the data were processed

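Total RNA from 3 plates of each line was measured on an Affymetrix mouse array. The deposited log2 values were made by the authors with RMA, per the submitters' processing notes, which corrects background, makes arrays alike in distribution and summarises probes. Its version, the log base and the centring of each probe set on a median of 0 are not given in the sources used here. Probe sets with 1 gene in the platform annotation were kept (20380 of 22690), and a gene's value is the mean of its probe sets. The fits were run on all genes, all such probe sets and all pairs of probe sets of 1 gene with limma 3.58.1 in R 4.3.3 (lmFit and eBayes, two-sided, Benjamini-Hochberg, adjusted p under 0.05), and tested on simulated data. Figures used Python 3.11.15, pandas 2.3.3 and matplotlib 3.10.9. Alternatives were array scaling, array weights, a replicate block, robust eBayes, single arrays left out and other rules for the gene value. Named genes were the 5 members, up to 4 genes past the threshold per pathway list, the 3 genes most like each member past the threshold by Pearson r, and up to 2 markers per list, with others given where a count needed them. Members and lists were chosen with earlier results of these data known. The number of arrays limits the precision.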

Additional observations from a re-analysis of the deposited data

How the results depend on the processing

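Npy1r, its probe sets and the difference between them kept their direction and their side of the threshold in every setting run, with the gene between 1.05 and 1.24 over single arrays left out. Npy5r kept its direction but not its call, at 0.24 with the same median in every array and between 0.19 and 0.35 with arrays left out. The number of member genes past the threshold was therefore 1 with the same median and between 1 and 2 with arrays left out. The genes not past the threshold had no stable sign. Npy2r was 0.039 with array weights as a gene and 0.047 as a probe set, and between -0.15 and 0.029 with arrays left out. With arrays left out, Npy lay between -0.0081 and 0.13, Npy6r between -0.012 and 0.088, and the difference between the Npy5r probe sets between -0.020 and 0.17. With the probe set of largest SD as the gene value, 4 other pathway genes instead of 2 were higher in N_46. The cause of these changes was not tested. Plain probe sets alone gave no value for Gnai2. Same-numbered replicates of the lines shared only a number, with correlations of their deviations of -0.03, -0.012 and 0.09. With the replicate block, Npy1r had a limma adjusted p of 4.66e-05 and Npy5r 0.0212, and 4834 instead of 4853 genes were past the threshold, with no call changed among the members, their probe sets and the pathway genes past the threshold; the block was not examined for neighbouring genes and markers. Centred values hold no signal over background, so a gene near 0 may be unexpressed in both lines or equal in both.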
